A study of Mus musculus with 12 samples.

Results

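S phase and mitosis genes were compared in corticotrophs, the pituitary cells that secrete adrenocorticotrophic hormone (ACTH). The groups were separate mice without exposure to dexamethasone (DEX), a synthetic glucocorticoid, at the end of exposure, or after it. The 55 genes were taken by symbol from a fixed list, out of 55304 genes in the expression table. All 55 were found, 15 of them S phase genes. The other 40 are called mitotic here, although E2f1, E2f8 and Esco2 among them act at S phase. The cells came from male POMC-GFP mice, aged 8 weeks at the start, in which a Pomc promoter transgene drives enhanced green fluorescent protein (Pomc-eGFP). All 4 groups carried the transgene. Control mice drank water without DEX, and DEX mice drank water with 2.5 µg/ml DEX for 4 weeks and were collected at its end. The recovery groups had the same 4 weeks of DEX and were collected 7 or 28 days after it was stopped, and are called here 1 week and 4 weeks recovery. Each group had 3 libraries, and each library was made from sorted fluorescent cells pooled from 2 to 3 anterior pituitaries, so that single animals and single cells were not resolved and p-values measure the spread between pools.

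In dividing cells, DNA is copied in S phase and the copies are parted in mitosis. S phase is served by the MCM helicase, which unwinds DNA, by PCNA, the sliding clamp of the polymerases, and by the enzymes that make deoxynucleotides. Entry into mitosis is driven by the kinase CDK1 with its B-type cyclins, and exit from it by the destruction of those cyclins through the anaphase-promoting complex. Transcripts of most mitotic genes are scarce in resting cells and abundant in late G2 and mitosis, under the control of the MuvB and FOXM1 complexes at cell cycle homology region (CHR) elements and of NF-Y at CCAAT boxes, whereas S phase genes are mostly E2F targets and can also be transcribed in cells that do not divide. Adult corticotrophs divide rarely. In bulk samples such as these, fewer cycling cells and less RNA per cell cannot be told apart.

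The promoters of 6 genes to which the results return are shown from 150 bases before to 30 bases after the RefSeq start of transcription, 5′ to 3′ on the strand of the gene (build GRCm38.p6). They are those of Hmmr (chr11:40733408-40733587, minus strand), Ccnb2 (chr9:70421525-70421704, minus strand), Top2a (chr11:99024160-99024339, minus strand), Ccnb1 (chr13:100786457-100786636, minus strand), Rrm2 (chr12:24708104-24708283, plus strand) and Pcna (chr2:132253151-132253330, minus strand). Capitals mark CCAAT boxes (CCAAT or its complement ATTGG) and CHR elements (TTTGAA or TTCAAA). The first 4 are the mitotic genes that passed the test of 1 week recovery against DEX, Rrm2 is the S phase gene with the largest difference in it, and Pcna is an S phase gene whose groups overlapped.
Hmmr: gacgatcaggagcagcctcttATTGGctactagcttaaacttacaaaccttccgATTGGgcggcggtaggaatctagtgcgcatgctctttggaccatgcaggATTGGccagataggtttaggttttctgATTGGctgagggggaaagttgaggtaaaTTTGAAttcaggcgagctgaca
Ccnb2: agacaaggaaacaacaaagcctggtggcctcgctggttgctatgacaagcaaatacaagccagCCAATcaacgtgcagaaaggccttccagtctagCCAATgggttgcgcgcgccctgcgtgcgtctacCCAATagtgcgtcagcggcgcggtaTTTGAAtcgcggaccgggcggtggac
Top2a: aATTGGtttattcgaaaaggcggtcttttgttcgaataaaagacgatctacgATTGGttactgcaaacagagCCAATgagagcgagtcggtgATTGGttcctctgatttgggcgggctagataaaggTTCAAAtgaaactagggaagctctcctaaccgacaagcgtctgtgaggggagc
Ccnb1: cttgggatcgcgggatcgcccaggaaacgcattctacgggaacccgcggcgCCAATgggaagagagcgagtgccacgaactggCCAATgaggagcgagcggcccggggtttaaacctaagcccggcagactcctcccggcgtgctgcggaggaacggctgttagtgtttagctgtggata
Rrm2: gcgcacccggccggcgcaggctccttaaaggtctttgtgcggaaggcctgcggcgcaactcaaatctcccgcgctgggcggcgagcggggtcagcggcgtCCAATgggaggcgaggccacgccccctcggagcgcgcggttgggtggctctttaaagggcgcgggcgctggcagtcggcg
Pcna: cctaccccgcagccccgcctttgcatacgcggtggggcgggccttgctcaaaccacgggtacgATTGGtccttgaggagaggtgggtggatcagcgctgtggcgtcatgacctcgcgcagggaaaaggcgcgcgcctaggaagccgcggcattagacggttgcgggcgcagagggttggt
Hmmr, Ccnb2 and Top2a held 1 CHR element each in this stretch, and between 3 and 4 CCAAT boxes. Ccnb1 held 2 CCAAT boxes, and Rrm2 and Pcna held 1 each, and none of these 3 genes had a CHR element here.

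Values were normalised counts, with 7719894 to 12848078 reads on genes per library and 1 read worth 0.0787 to 0.127. A gene was tested if it exceeded 0.1 in at least 3 libraries, which kept 24736 genes and all 55 members. Ttk and Esco2 passed this filter only with the 1 week pools, so their differences there are given as values and comparisons with the 1 week pools are counted over the other 38 mitotic genes. In these counts the share of all genes is that of all 24736 genes tested. The sorted cells expressed Pomc at 34562 to 74260 normalised counts in control, 4241 to 8521 in DEX, 43612 to 284740 at 1 week and 48189 to 80216 at 4 weeks. Pomc was the only one of 5 corticotroph markers with a fold change above 0 at 1 week, against DEX and against control alike. Tbx19, the transcription factor of the corticotroph lineage, had 498 to 1490 in DEX and 39.5 to 385 at 1 week, and Avpr1b, a vasopressin receptor, 67.9 to 130 and 1.56 to 40.02. The other 2 markers, Crhr1 and Neurod1, differed by -0.15 (log2) each between 1 week and DEX, and none of the 5 passed the limma test of that comparison. Growth hormone and prolactin transcripts of other pituitary cells were also present in every pool, with summed somatotroph markers of 67713 to 266036.

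Few mitotic genes passed a test over all genes. On the whole, the mitotic genes were scarce in the control and DEX pools and most abundant 1 week after DEX was stopped. Their geometric mean was 0.888 to 1.37 normalised counts in the control pools and 0.711 to 0.916 in the DEX pools. It was 1.89 to 6.72 in the 1 week pools and 1.01 to 1.84 in the 4 weeks pools. This mean took in all mitotic genes, Ttk and Esco2 included. On it, only the 1 week pools all lay above every other pool, by a narrow margin of 1.89 in pool 3 against 1.84 in 4 weeks pool 2. Whether this held without Ttk and Esco2, which passed the filter only with the 1 week pools, was not tested. Of the 38 mitotic genes, 17 to 25 were above 1 normalised count in control, 14 to 16 in DEX, 31 to 38 at 1 week and 19 to 27 at 4 weeks. The geometric mean of the S phase genes was 6.50 to 9.48 in control, 7.21 to 9.89 in DEX, 6.87 to 15.1 at 1 week and 9.08 to 10.6 at 4 weeks, with all 4 groups overlapping.

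**Figure D1:**
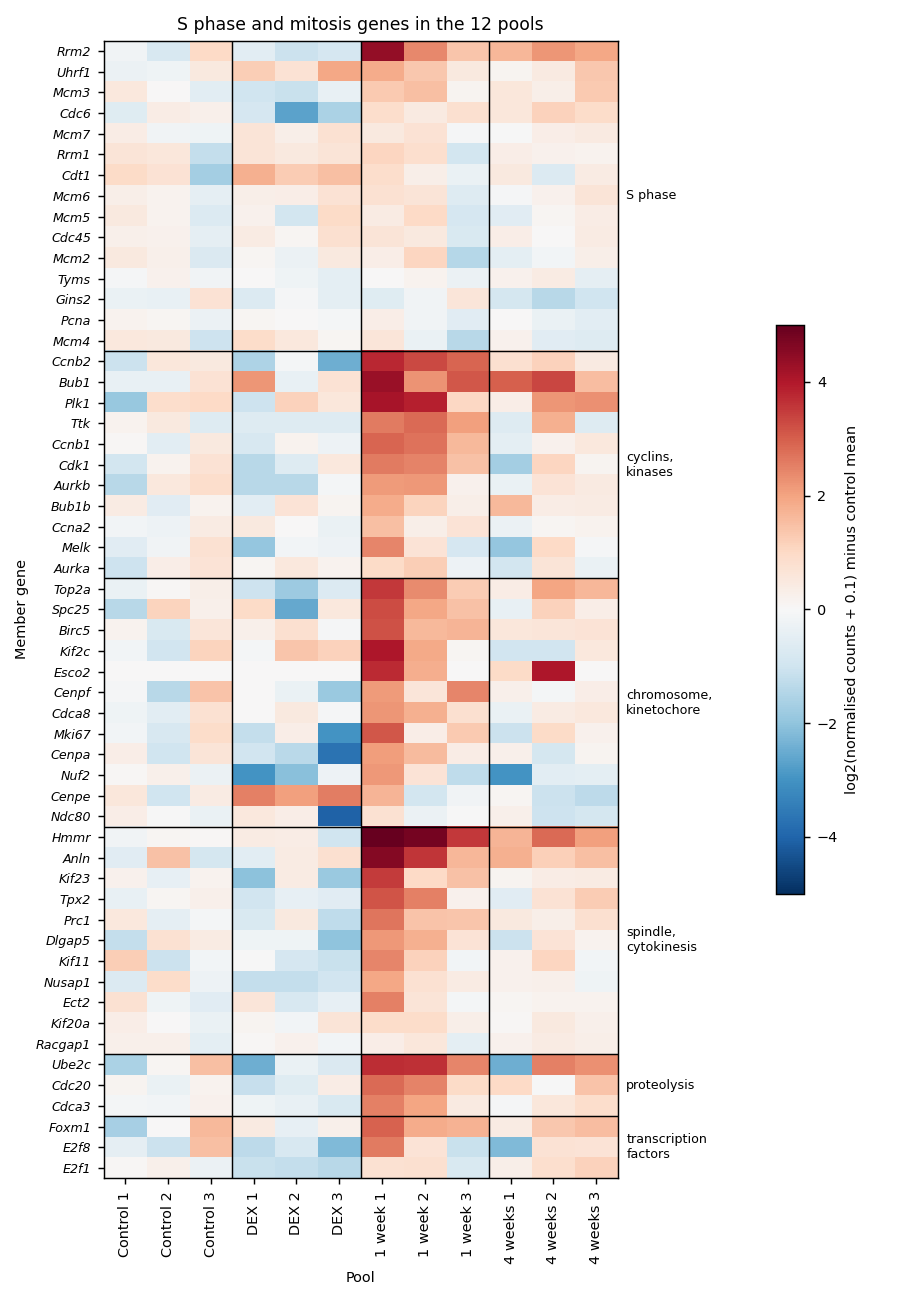
Heat map of the 55 genes (rows, by role) in the 12 pools (columns), coloured by log2(normalised counts + 0.1) minus the mean of the control pools. The 1 week columns are red over nearly all mitotic genes, most strongly in pool 1 and least in pool 3, while the S phase block is pale in most pools.

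Hmmr, which encodes a spindle-binding receptor for hyaluronan, stood at the edge of detection outside recovery. It had 0.0787, 0.118 and 0.109 normalised counts in the control pools and 0.166, 0.164 and 0 in the DEX pools. At 1 week it had 7.89, 5.48 and 2.22, and at 4 weeks 0.554, 1.31 and 0.722. All 3 pools of 1 week recovery were above all 9 others, and those of 4 weeks lay between them and the rest. In reads, this was 146 at 1 week against 3 in control, a ratio of 54.1 (95% counting interval 18.1 to 265). Hmmr was the member with the smallest p across the 4 groups (limma F test, adjusted p = 0.0123), and was higher at 1 week than in DEX by 4.62 ± 0.67 (log2, SE; limma, adjusted p = 0.00581).

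Ccnb2 and Ccnb1 encode the B-type cyclins that bind CDK1. Ccnb2 had 0.157, 0.707 and 0.652 normalised counts in control, 0.0828, 0.409 and 0 in DEX, 7.32, 5.23 and 4.00 at 1 week, and 0.832, 1.09 and 0.632 at 4 weeks. The 1 week pools did not overlap with any other, and 154 reads there stood against 6 in DEX, a ratio of 31.2 (14.0 to 86.2). Ccnb2 passed the F test (limma, adjusted p = 0.0297) and was higher at 1 week than in DEX by 4.70 ± 0.70 (log2, SE; limma, adjusted p = 0.00664). Ccnb1 had 1.26, 0.825 and 1.74 in control, 0.663, 1.39 and 1.01 in DEX, 9.89, 8.67 and 4.00 at 1 week, and 0.832, 1.42 and 1.80 at 4 weeks. Its control, DEX and 4 weeks pools overlapped with each other, and the 1 week pools lay apart. Ccnb1 was higher at 1 week than in DEX by 2.72 ± 0.55 (log2, SE; limma, adjusted p = 0.0397).

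Top2a, the topoisomerase that untangles sister DNA molecules, had 0.865, 1.18 and 1.41 normalised counts in control and 0.497, 0.245 and 0.673 in DEX. It had 14.4, 6.25 and 2.89 at 1 week and 1.48, 4.71 and 3.79 at 4 weeks. Every DEX pool was below, and every pool of both recovery groups above, every control pool. The difference between 1 week recovery and DEX was 3.58 ± 0.64 (log2, SE; limma, adjusted p = 0.0191), and that between DEX and control was -1.18 ± 0.64 (limma, adjusted p = 0.792). Only 3 members had all DEX pools below and all 1 week pools above control, namely Top2a, Cdc6 and Cdca3, against 0.186% of all genes tested.

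Hmmr, Ccnb2, Top2a and Ccnb1 were the 4 members that passed the limma test of 1 week recovery against DEX, all of them mitotic and all higher, against 0.105% of all genes called higher and 0.327% called lower in that comparison. With edgeR's quasi-likelihood test on the recovered reads, 9 members passed, 8 of them mitotic, with 0.21% of all genes called higher. They were these 4 with Rrm2, Cenpa, Cdc20, Tpx2 and Cdca3. DESeq2 called 19 (1.39% of all genes) and edgeR's likelihood ratio test 22 (1.34%), and every one of these was higher at 1 week. Ttk was among the 22. In 23 of the 38 mitotic genes every 1 week pool exceeded every DEX pool, against 6.97% of all genes, and the median difference of the 38 was 2.31 (log2). All 4 limma calls were also made by each of these count tests. The calls depended on the pools, and more so for Top2a and Ccnb1. Over the 12 fits with 1 pool left out, limma called Hmmr and Ccnb2 in 11 each, Top2a in 7 and Ccnb1 in 4. Without DEX pool 3 it called 0 members. Without DEX pool 1, 1 week pool 1 or 1 week pool 2 it called 2 in each case (Hmmr and Ccnb2). Without DEX pool 2 it called Hmmr, Ccnb2, Prc1 and Kif23, and without 1 week pool 3 it called 12. The share of all genes is not given for these fits. A model with the DEX and 1 week pools alone called 0.

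**Figure D2:**
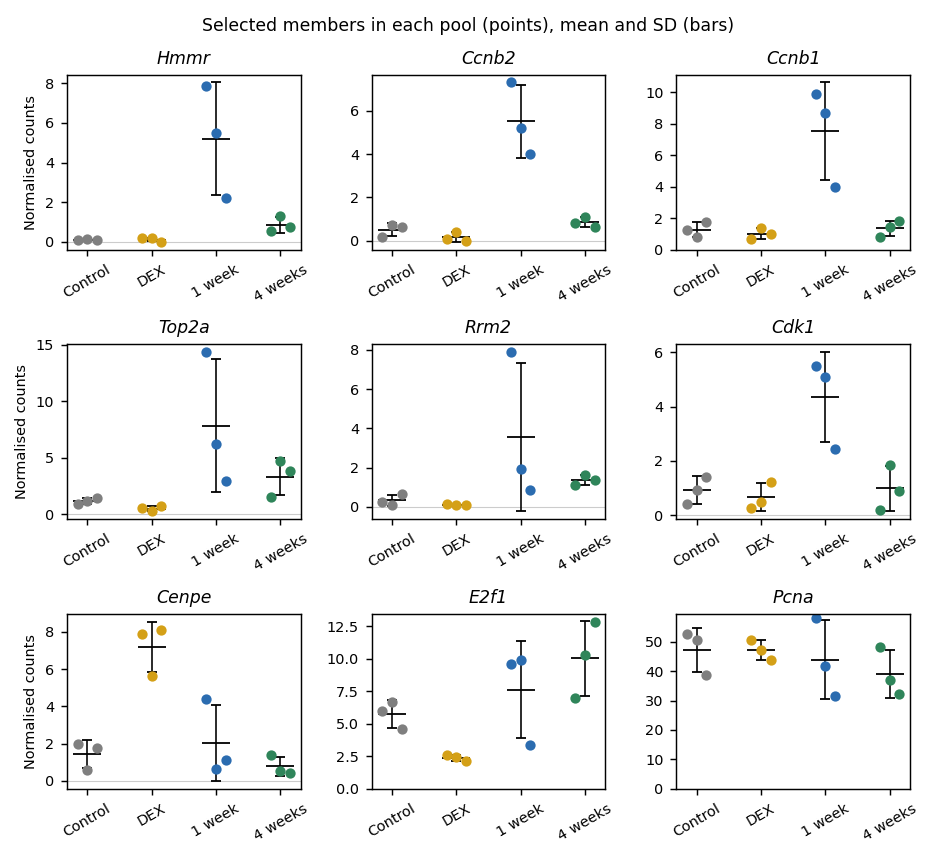
Normalised counts of 9 members in each pool (points), with the mean and SD of each group of 3 pools (bars); each panel has its own linear scale. Hmmr, Ccnb2, Ccnb1, Top2a and Cdk1 have 1 week pools above all control and DEX pools, Cenpe is highest in DEX, E2f1 is lowest in DEX, and the groups of Pcna overlap.

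Across the F test over the 4 groups, limma called 2 members, Hmmr and Ccnb2, against 0.315% of all genes tested, and 30 members had an unadjusted p under 0.05 (9.21% of all genes). The quasi-likelihood test called 6 members, against 0.667% of all genes, adding Ccnb1, Top2a, Rrm2 and Anln, while DESeq2 called 21 (3.68%) and the likelihood ratio test 25 (4.23%). Anln, which encodes the actin-binding scaffold anillin of the cleavage furrow, had 0.157, 0.942 and 0.109 normalised counts in control and 0.166, 0.409 and 0.561 in DEX. It had 9.22, 4.46 and 1.11 at 1 week and 1.20, 0.766 and 0.992 at 4 weeks. The 1 week pools were all above the control and DEX pools, but the lowest of them was below a pool of 4 weeks recovery. The F test gave an adjusted p of 0.185 in limma and 0.0451 in edgeR's quasi-likelihood test.

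Cdk1, the kinase of mitotic entry, and Mki67, which encodes the proliferation antigen Ki-67, passed none of these limma tests. With array weights, limma called Cdk1 over the 4 groups and both genes for 1 week recovery against DEX. In each of these 2 comparisons DESeq2 called Cdk1 and edgeR's likelihood ratio test called both. Cdk1 had 0.393, 0.942 and 1.41 normalised counts in control, 0.249, 0.491 and 1.23 in DEX, 5.51, 5.10 and 2.45 at 1 week, and 0.185, 1.86 and 0.902 at 4 weeks. All 1 week pools of Cdk1 were above all others, with a difference from DEX of 2.69 ± 0.77 (log2, SE; limma, adjusted p = 0.145). Mki67 had 0.629, 0.353 and 1.41 in control, 0.249, 0.899 and 0 in DEX, 6.75, 0.892 and 1.89 at 1 week, and 0.277, 1.42 and 0.812 at 4 weeks. Its 1 week pools overlapped with control and DEX because pool 2 had 0.892. The difference from DEX was 2.87 ± 0.92 (log2, SE; limma, adjusted p = 0.205).

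Against control, 1 week recovery had fold changes above 0 in all 38 mitotic genes (50.2% of all genes), with a median of 1.62 (log2) and 28 genes above 1, while the median of all genes tested was 0.0022. In 17 of the 38, every 1 week pool exceeded every control pool, against 3.47% of all genes. Of the 15 S phase genes, 2 did so (Cdc6 and Rrm2), 10 had a fold change above 0, and their median was 0.25. No member passed the limma test of 1 week recovery against control, in which no gene of the 24736 was called. Hmmr was nearest, with a difference of 4.55 ± 0.67 (log2, SE; limma, adjusted p = 0.0674). Without adjustment, 22 of the 38 mitotic genes and 2 S phase genes had a p under 0.05 and were higher, against 1.81% of all genes. The edgeR quasi-likelihood test called 1 member (Hmmr, adjusted p = 0.0469, with 0.00809% of all genes called higher), DESeq2 5 (0.0539%) and edgeR's likelihood ratio test 10 (0.105%).

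**Figure D3:**
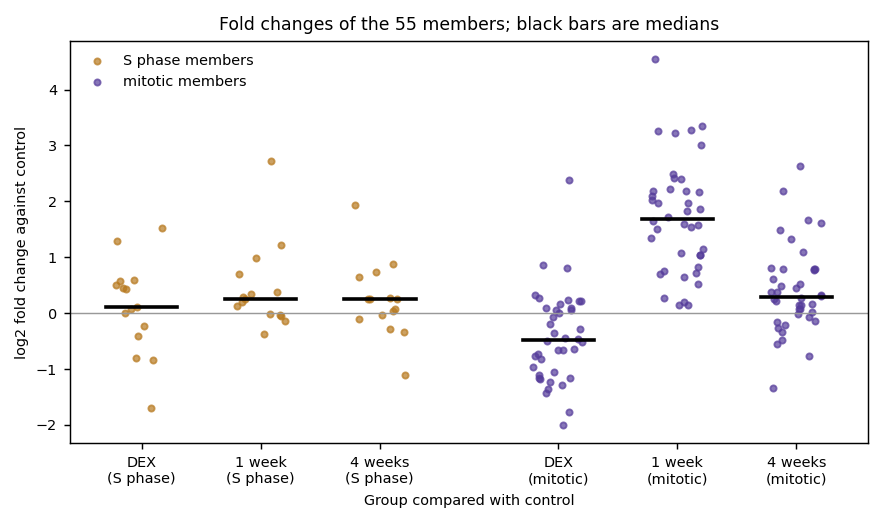
Log2 fold change of each member (points) in DEX, 1 week and 4 weeks recovery against control, for the 15 S phase genes (left) and the 40 mitotic genes (right), with the median of each set (black bars). All 40 mitotic genes, Ttk and Esco2 included, lie above 0 at 1 week, with a median of 1.69, whereas the S phase median there is 0.25.

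The cyclins and kinases, 11 genes with CDK1 and the checkpoint kinases, had a median of 1.85 (log2) at 1 week against control over the 10 without Ttk, from 0.65 in Aurka to 3.34 in Ccnb2. In 5 of the 10 the 1 week pools were all above control, against 3.47% of all genes. Plk1, the kinase of centrosome maturation, had 6.46, 5.35 and 0.667 normalised counts at 1 week, and its highest control pool had 0.652. Bub1, a kinase of the spindle checkpoint, had 1 read in all 3 control pools together and 39 at 1 week, a ratio of 43.3 (7.33 to 1755). Ttk, another checkpoint kinase, had 0 reads in DEX and 22 at 1 week, at least 8.90-fold higher against a floor of 3 reads over the group.

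The 12 chromosome and kinetochore genes had a median of 1.59 (log2) at 1 week against control over the 11 without Esco2, from 0.15 in Ndc80 to 2.40 in Top2a. Cenpa, the centromeric histone H3 variant, had 3.38, 1.30 and 4.24 normalised counts in control and 1.33, 0.981 and 0.112 in DEX. It had 11.7, 8.16 and 3.45 at 1 week and 3.23, 1.42 and 2.98 at 4 weeks. The 1 week pools of Cenpa were above those of DEX but reached into the control range. Esco2, the cohesin acetyltransferase of S phase, was not detected in control or DEX, and its 15 reads at 1 week put it at least 5.55-fold above control. At 4 weeks it also had 15 reads, nearly all in pool 2, which had 1.53 normalised counts.

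The 11 spindle and cytokinesis genes had a median of 1.54 (log2) at 1 week against control, from 0.14 in Racgap1 to 4.55 in Hmmr. Racgap1 and Kif20a, which serve cytokinesis, had the highest counts of this role and differences of 0.14 and 0.70 (log2). Racgap1 had 48.9 to 80.6 normalised counts in control and 48.8 to 102 at 1 week, and Kif20a had 11.6 to 18.3 and 17.8 to 27.7. Together with Ccna2 they made up most of the summed mitotic counts in control, which were 128 to 151 with these 3 genes and 41.6 to 54.6 without them. At 1 week the sums were 160 to 400 with and 78.4 to 259 without them. The 3 proteolysis genes (Ube2c and Cdc20, which work with the anaphase-promoting complex, and Cdca3) all had 1 week pools above control (3.47% of all genes), with a median of 2.09 (log2). Ube2c had 6.84, 6.63 and 2.78 at 1 week against 0.0787, 0.471 and 1.41 in control.

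Among the S phase genes, Rrm2 had the largest difference at 1 week. It encodes the small subunit of ribonucleotide reductase, which makes deoxynucleotides. Rrm2 had 0.236, 0.118 and 0.652 normalised counts in control, 0.166, 0.0818 and 0.112 in DEX, 7.89, 1.91 and 0.889 at 1 week, and 1.11, 1.64 and 1.35 at 4 weeks. All recovery pools were above all control and DEX pools. The difference between 1 week recovery and DEX was 3.53 ± 0.76 (log2, SE), with an adjusted p of 0.0566 in limma and 0.0257 in edgeR's quasi-likelihood test. The partner subunit Rrm1 had 14.5 to 51.9 in control and 17.7 to 69.8 at 1 week, with overlapping pools.

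Pcna and the MCM genes were already abundant in control. Per kilobase of exon, the control means were highest for Pcna at 19.7 normalised counts, followed by Mcm4 at 16.3 and Racgap1 at 9.88. The mean of Hmmr on the same scale was 0.0187. Pcna had 52.5, 50.7 and 38.6 normalised counts in control, 50.4, 47.3 and 43.9 in DEX, 58.2, 41.7 and 31.7 at 1 week, and 48.0, 37.0 and 32.1 at 4 weeks. No group of Pcna stood apart, and the difference between 1 week and control was -0.14 ± 0.26 (log2, SE; limma, adjusted p = 1). Mcm2 had 43.9, 36.9 and 18.9 in control, 33.8, 25.3 and 44.3 in DEX, 39.5, 65.1 and 11.6 at 1 week, and 22.5, 28.8 and 38.3 at 4 weeks. The 1 week pools of Mcm2 held both its highest and its lowest value, with a difference from control of -0.01 ± 0.49 (log2, SE; limma, adjusted p = 1).

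At the end of the 4 weeks of DEX, no member passed the limma test against control, in which 0.109% of all genes were called higher and 0.0121% lower. At an unadjusted p under 0.05, 3 members were higher and 3 lower, against 3.6% and 3.2% of all genes. The quasi-likelihood test and DESeq2 called 0, and edgeR's likelihood ratio test called 1 (Cenpe, with 0.695% of all genes called higher). The median of the mitotic genes was -0.48 (log2), or -0.45 with groups without reads set to the floor of 3 reads. In 5 of 40 mitotic genes all DEX pools were below control, against 6.23% of all genes, and in 1 all were above, against 6.61%. The S phase genes had a median of 0.10, with Cdt1, Mcm6 and Uhrf1 above control in every DEX pool and Cdc6 below. Cdt1 had 197 reads in DEX, 83 in control, 72 at 1 week and 70 at 4 weeks. Its DEX pools were above all pools of the other groups.

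Cenpe, the kinetochore motor that carries chromosomes to the spindle equator, had its highest values in DEX. It had 1.97, 0.589 and 1.74 normalised counts in control and 7.87, 5.64 and 8.07 in DEX. It had 4.37, 0.637 and 1.11 at 1 week and 1.39, 0.547 and 0.451 at 4 weeks. Every DEX pool was above all 9 others. The difference from control was 2.39 ± 0.69 (log2, SE; limma, adjusted p = 0.325), with 236 reads in DEX against 46, and that between 4 weeks recovery and DEX was -3.15 ± 0.69 (limma, adjusted p = 0.0452).

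E2f1, a transcription factor of S phase entry, had 5.98, 6.71 and 4.57 normalised counts in control and 2.57, 2.45 and 2.13 in DEX. It had 9.60, 9.94 and 3.34 at 1 week and 7.02, 10.3 and 12.8 at 4 weeks. The DEX pools were below all others, the 4 weeks pools were all above control, and the 1 week pools spanned the control range. E2f1 was higher at 4 weeks than in DEX by 1.99 ± 0.44 (log2, SE; limma, adjusted p = 0.0452). It was lower in DEX than in control by a log2 difference of -1.22 ± 0.44 (limma, adjusted p = 0.524). Foxm1, a transcription factor of late cell cycle genes, had 0.0787 to 1.63 in control, 0.327 to 0.662 in DEX and 1.78 to 4.28 at 1 week.

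Cenpe and E2f1 were the 2 members called between 4 weeks recovery and DEX, 1 lower and 1 higher, in a comparison in which limma called 0.461% of all genes lower and 0.412% higher. The quasi-likelihood test called the same 2 members (0.372% of all genes higher and 0.493% lower). DESeq2 called 6, of which 5 were higher (1.78% of all genes, and 1.71% lower), and the likelihood ratio test 6, of which 5 were higher (1.31%, and 1.4% lower). In limma, both calls were lost when any 1 DEX pool or any 1 pool of 4 weeks recovery was left out, and also without the filter on low values or with only these groups in the model.

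After 4 weeks of recovery, no member passed the limma test against control, in which no gene of the 24736 was called. At an unadjusted p under 0.05, 3 members were higher and 1 lower (3.43% and 2.92% of all genes), and the quasi-likelihood test, the likelihood ratio test and DESeq2 called 0 members. The mitotic median was 0.28 (log2). In 4 of the 40 mitotic genes (Bub1, E2f1, Hmmr and Top2a), all pools were above control, against 6.77% of all genes, and in Nuf2 all were below, against 6.42%. The difference of Hmmr from control was 2.18 ± 0.67 (log2, SE; limma, adjusted p = 0.588). Compared with 1 week, 36 of the 38 mitotic genes had a fold change below 0 at 4 weeks (52.4% of all genes), with a median of -1.30 (log2). In 15 of the 38 every 4 weeks pool was below every 1 week pool, against 3.72% of all genes. Limma and the quasi-likelihood test called 0 members here, and at an unadjusted p under 0.05, 15 of the 38 were lower (1.77% of all genes) and 0 higher. DESeq2 (0.0241% of all genes called lower) and the likelihood ratio test (0.21%) each called Ccnb1 and Ccnb2.

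The 3 pools of 1 week recovery differed widely. All 38 mitotic genes exceeded the highest control pool in pool 1, 28 did in pool 2 and 20 in pool 3. In pool 3, 5 were below the lowest control pool. Pool 1 was the highest of the 3 for 34 of all 40 mitotic genes, and pool 3 the lowest for 32. The summed counts of all 40 mitotic genes were 400 in pool 1, 289 in pool 2 and 160 in pool 3. They reached at most 151 in control and were 153 to 191 at 4 weeks, a range that holds the 160 of pool 3. The S phase genes followed the same order, with pool 3 lowest for 13 of 15.

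Markers of other cell types also varied between pools. Summed endothelial markers (10 genes) were 10.9 to 80.2 in control, 7.04 to 14.1 in DEX, 33.1 to 201 at 1 week and 90.2 to 170 at 4 weeks. All 10 had a higher fold change at 1 week than in DEX, as did the 9 leukocyte markers, which summed to 21.9 to 32.2 in DEX and 94.1 to 158 at 1 week. The means of these sums were 92.7 and 120 at 1 week and 138 and 172 at 4 weeks. The mean of the summed mitotic counts was 283 at 1 week and 175 at 4 weeks. Among the 1 week pools, endothelial markers were highest in pool 3 (201), where the mitotic genes were lowest, and lowest in pool 1 (33.1), where the mitotic genes were highest. None of the 11 marker lists put the 1 week pools in the order of the mitotic sum, but an order of 3 pools cannot show which cells held the transcripts. The corticotroph sum was 99.66% to 99.85% Pomc in these pools, and the other 4 corticotroph markers summed to 513 in pool 1, 646 in pool 2 and 64.3 in pool 3. Pool 1 of 1 week recovery also held the plasma cell transcripts Igha (89.3 normalised counts) and Igkc (43.4), which were chosen after their values were seen and reached at most 0.435 and 1.02 in any other pool. Pool 2 had 0.127 and 0.255 of them. Without pool 1, a setting added after the data were seen, all 1 week pools were above control in 17 of the 38 mitotic genes (7.79% of all genes), 33 had a fold change above 0, and the median was 1.22 (log2). Without pool 3 these values were 28 (9.08% of all genes), 38 and 2.01. The S phase genes moved too. Without pool 3 all 1 week pools were above control in 8 of the 15 (9.08% of all genes) and their median was 0.66, against 2 and 0.25 with all pools, and without pool 1 the values were 2 and 0.0089. Which of the sorted cells carried the mitotic transcripts was not tested.

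**Figure D4:**
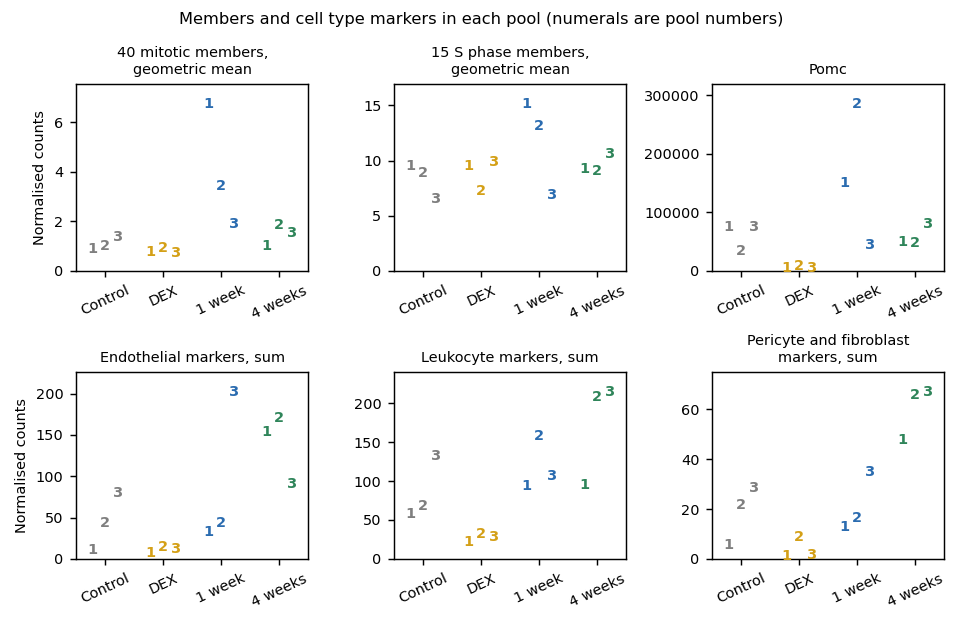
Normalised counts in each pool (numerals are pool numbers) for the geometric means of the mitotic and S phase genes, for Pomc, and for summed markers of endothelial cells, leukocytes, and pericytes and fibroblasts, each on its own linear scale from 0. At 1 week the mitotic genes are highest in pool 1 and lowest in pool 3, and the endothelial and pericyte markers are highest in pool 3 and lowest in pool 1.

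A further list of 52 cell cycle genes, of which 51 were tested, held 1 gene called higher at 1 week than in DEX (0.105% of all genes). This was Pbk, a mitotic kinase, with 0.166, 0.245 and 0.112 normalised counts in DEX and 20.5, 7.77 and 3.00 at 1 week, a difference of 4.89 ± 0.87 (log2, SE; limma, adjusted p = 0.0191). Over that list the median difference from control at 1 week was 0.36 (log2). In 13 of the 51 all 1 week pools were above control, against 3.47% of all genes. The list mixed replication and mitotic genes. The study had already listed Pbk, from these same libraries, as lower in DEX and higher in both recovery groups. Its call here is therefore not independent support.

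Promoter windows from 250 bases before to 50 after the start of transcription were found in RefSeq for 46 of the 55 members. Aurkb, Gins2, Dlgap5, Esco2, Ccna2, Foxm1, Tpx2, Kif20a and Mcm4 were not matched. The following motifs were searched on both strands, namely the CCAAT box (CCAAT), the CHR element (TTTGAA) and E2F sites. An E2F site was a match to the core TTCCCGC, to the core TTGGCGC or to the core TTCGCGC. Of 33 mitotic genes, 25 held a CHR element (75.8%) and 25 a CCAAT box (75.8%), against 20.2% and 41.1% of the 27025 genes with a window, and 6 held an E2F site (18.2%, against 9.2%). Of 13 S phase genes, 2 held a CHR element (15.4%), 10 a CCAAT box (76.9%) and 8 an E2F site (61.5%). CHR elements were thus found mostly in mitotic genes, and E2F sites in a larger share of S phase genes than of mitotic genes. Among the mitotic genes, Ttk left out, those with a CHR element had a median difference from control at 1 week of 1.77 (log2, n = 24) and those without one 0.90 (n = 8), with ranges that overlapped, from 0.14 to 4.55 and from 0.20 to 3.23. The split by CCAAT box gave the same medians, 1.77 (n = 24) with it and 0.90 (n = 8) without. Genes with an E2F site had 1.89 (n = 6) and those without 1.69 (n = 26). The larger median was thus not particular to the CHR element. Cenpe and Cdt1 each had every DEX pool above all pools of the other groups. Cenpe held a CCAAT box and neither of the other motifs, and Cdt1 held E2F sites and neither of the others. A match of letters is a description and not a site shown to be bound.

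**Figure D5:**
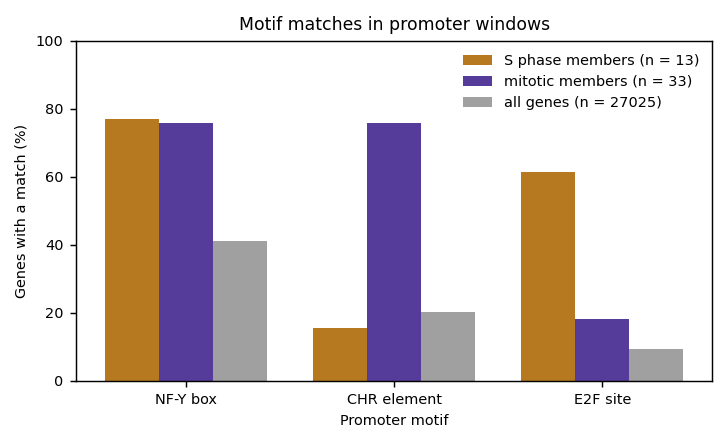
Share of genes (%) with a match to each promoter motif, the NF-Y (CCAAT) box, the CHR element and the E2F site, for 13 S phase genes, 33 mitotic genes and 27025 genes in all. The NF-Y box is found in 76.9% and 75.8% of the member sets, the CHR element in 15.4% and 75.8%, and the E2F site in 61.5% and 18.2%.

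Of the 55 members, 14 share exonic bases with another gene, 6 of them over at least 10% of their exon length. Reads in such stretches cannot be assigned with certainty, because the library kit does not mark the strand. The largest overlap was that of Gins2, a subunit of the replicative helicase, with Gse1 on the opposite strand (67.3% of its exon bases). Gins2 had 14.2, 9.96 and 13.2 normalised counts at 4 weeks against 20.4 to 43.6 in control, and Gse1 was lower as well, with means of 19.7 and 39.2. Kif20a overlaps Cdc23 over 29.3%, Ube2c overlaps Tnnc2, listed at 0 in every pool, over 22.8%, and Ccna2 overlaps Exosc9 over 12.5%. None of the 4 members called at 1 week against DEX was among the 6.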

How the data were processed

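The series held 12 RNA-seq libraries of sorted Pomc-eGFP positive cells, made with the SMART-V4 and Nextera XT kits, which do not mark strand. Per the labels and the study's methods, the authors trimmed reads (Trim Galore 0.6.5), aligned them to GRCm38 with STAR 2.7.1a, counted them per gene with featureCounts 2.0.0 under a reverse-strand setting, and scaled the counts with edgeR. The deposited table is named as CPM (counts scaled per library), but its columns sum to 823964 to 1423897, so its unit was taken as a signal that the authors scaled by effective library size, and the test planned for CPM was kept. Division by each column's smallest value above 0 recovered whole reads for 100% of 271881 values (tolerance 1e-06). Depth was 7719894 to 12848078 reads on genes, and counting intervals (95%) and floors (3 reads over a group) cover counting error only.

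Genes above 0.1 in at least 3 libraries (24736) were tested with limma 3.58.1 in R 4.3.3 (trend) on log2(value + 0.1), over all 12 libraries with 4 groups and no covariate. P-values were adjusted by Benjamini-Hochberg over all genes tested and called under 0.05. Fold changes on this scale understate those of scarce genes. Alternatives on recovered reads were DESeq2 1.42.0 and, in edgeR 4.0.16, a quasi-likelihood and a likelihood ratio test (the quasi-likelihood F test called 165 genes, the likelihood ratio test 1047 and DESeq2 734, against 78 in limma). Further alternatives were other pseudocounts, filters and scalings, array weights, smaller models, the replicate number as a block, and leaving out each pool. The limma test (also with array weights or the block), both edgeR tests and DESeq2 were tested on simulated counts with known changes at 1 week against control. Values in every pool were given for members past any limma test or the quasi-likelihood F test and for Mki67, Top2a, Pcna, Cdk1, Ccnb1 and Mcm2. Further members were described by role, with the largest and smallest fold, and the other examples were chosen after their values were seen. Members, roles, marker lists, motifs and rules were chosen with earlier results of these data known. Gene positions and overlaps came from GENCODE M21 (GRCm38), and promoters from RefSeq (GRCm38.p6).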

Additional observations from a re-analysis of the deposited data

Results flagged for a closer look

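Each result here is a difference between the effects of 2 groups against the shared control. Effects of DEX and of 1 week recovery differed by the test of the difference in Ccnb1 (2.72 on the log2 scale), Ccnb2 (4.70), Hmmr (4.62) and Top2a (3.58), each higher at 1 week (limma, adjusted p = 0.0397, 0.00664, 0.00581 and 0.0191). Effects of DEX and of 4 weeks recovery differed in Cenpe (-3.15) and E2f1 (1.99), with a limma adjusted p of 0.0452 for both. For 3 members (Cdc6, Cdca3 and Top2a), every DEX pool was below and every 1 week pool above every control pool; over the 3 genes together this difference was not tested. No formal test for an outlying pool was run on groups of 3.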

How the results depend on the processing

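The number of members called depended on the test. For the 4 groups, limma's 2 became 1 without the filter on low values, 6 with edgeR's quasi-likelihood test, 21 with DESeq2, 25 with the likelihood ratio test and 29 with array weights. For 1 week recovery against DEX, 4 became 0 with only the compared groups in the model, 7 at a pseudocount of 1, 9 with quasi-likelihood, 19 with DESeq2, 22 with the likelihood ratio test and 31 with array weights. For 1 week recovery against control, 0 became 1 at a pseudocount of 0.5, 2 at 1, 2 with array weights, 1 with quasi-likelihood, 10 with the likelihood ratio test and 5 with DESeq2. For 4 weeks recovery against DEX, 2 became 1 at a pseudocount of 0.5 or 1 and with quantile normalisation, 0 without the filter and with only the compared groups, 7 with array weights, and 6 with the likelihood ratio test and DESeq2. For DEX against control, 0 became 1 with array weights and the likelihood ratio test, and for 4 weeks against 1 week recovery, 0 became 2 with the likelihood ratio test and DESeq2. Ttk, which passed the filter only with the 1 week pools, was among the 7, 22 and 31 for 1 week recovery against DEX and the 25 and 29 for the 4 groups, and Esco2 among the 25. For settings other than the main limma fit, both edgeR tests and DESeq2, the share of all genes called is not given here. Counts of members under those settings, array weights and left-out pools among them, can therefore not be set against it. The cause was not tested.

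Leaving out 1 pool gave 0 to 10 members for the 4 groups, 0 to 0 for DEX against control, 0 to 1 for 1 week recovery against control, 0 to 12 for 1 week recovery against DEX, and 0 to 3 for 4 weeks recovery against DEX. The lowest values for the 4 groups and for 1 week recovery against DEX came without DEX pool 3, and the highest without 1 week pool 3, in which the mitotic genes were lowest. Without DEX pool 1, 1 week pool 1 or 2, or any 4 weeks pool, the count for the 4 groups was 1. Without control pool 1 or 2, that for 4 weeks recovery against DEX was 1. An arm left with fewer pools shares the spread of the other groups.

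Leaving out 1 pool changed the sign of 16 of the 55 members at 1 week against control (at most 0.76 in size with all pools, in Melk) and of 10 at 1 week against DEX (at most 1.21, in Ndc80). At 1 week against control, leaving out 1 pool gave -0.54 to 0.76 (log2) for Cenpe, -0.0024 to 0.77 for E2f1, -0.55 to 0.69 for Mcm2 and -0.36 to 0.073 for Pcna. At 1 week against DEX it gave -0.65 to 0.59 for Mcm2 and -0.37 to 0.063 for Pcna. The sign turned without control pool 2 or 1 week pool 1 in Cenpe, without 1 week pool 2 in E2f1, without 1 week pool 3 in Mcm2 and Pcna, and in Mcm2 also without control pool 1 or 2 (against control) or DEX pool 3 (against DEX). With array weights Mcm2 was 0.0072 against control and 0.25 against DEX, and Pcna 0.077 and 0.13. In both edgeR tests Mcm2 was 0.22 against control and 0.17 against DEX, and in DESeq2 0.21 and 0.18.

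Pools that share a replicate number did not deviate together (median correlation 0.056 over 18 pairs, against -0.0145 over 36 other pairs). With the replicate number as a block, limma called 2 members over the 4 groups, 3 for 1 week recovery against DEX and 2 for 4 weeks recovery against DEX. Depth limits the scarce genes: a value of 1 read moves members such as Hmmr in control, where all 3 pools together held 3 reads.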
